A study of Mus musculus with 6 samples.

Results

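The Slc25a genes encode the mitochondrial carriers, the largest family of solute transporters of the inner mitochondrial membrane. Their transcripts were followed in mouse trigeminal ganglion (tissue labelled TG), which holds the sensory neurons of the face. Every row of the deposited gene table whose symbol begins with Slc25a was taken, which gave 39 of 13673 rows. The members were grouped by the substrate assigned to the protein where there was one. The others were grouped as uncoupling-protein relatives, as an outer membrane member or as unassigned. A further 8 genes so named in the GENCODE M21 annotation (Slc25a2, Slc25a21, Slc25a31, Slc25a34, Slc25a41, Slc25a43, Slc25a48 and Slc25a54) were not analysed here. The 6 libraries came from wild-type (WT) mice at day 3 after an injection, 3 after complete Freund's adjuvant (CFA), an emulsion that provokes inflammation, and 3 after saline. The labels give no strain, sex, age, site of injection or pooling of animals, and nothing says which animals the libraries came from. The p-values therefore measure the spread between libraries, which may be partly technical.

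A mitochondrial carrier is built of similar repeats around a single transport path, and it alternates between a state open to the cytosol and a state open to the matrix. ADP/ATP carriers send out the ATP made by oxidative phosphorylation, and the phosphate carrier supplies its other substrate. The aspartate/glutamate and oxoglutarate carriers run the malate-aspartate shuttle, which brings reducing equivalents into mitochondria and which neurons rely on heavily. Other members carry citrate, carnitine esters, amino acids, cofactors, nucleotides, glutathione or iron, and a few uncoupling-protein relatives are known from brain. All are encoded in the nucleus and made in the cytosol, and most are inserted into the inner membrane through the TIM22 route.

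The family's summed level overlapped between groups, and no carrier passed the test. Of 38 members tested, 19 were higher and 19 lower under CFA, where 51.4% of all 12238 tested genes were higher. The median log2 fold change (CFA minus saline, of FPKM with 1 added) was −0.01 in the family and 0.01 over all genes. limma, with Benjamini-Hochberg adjustment over all genes, called 0 members at an adjusted p below 0.05, and 0.0572% of all genes (0.0327% higher and 0.0245% lower). An unadjusted p below 0.05 was found in 3 members (7.89% of those tested), against 8.32% of all genes. The 3 were Slc25a51 and Slc25a32, both lower under CFA, and Slc25a27, higher, where 2.95% of all genes were lower and 5.37% higher by the same rule. That count fell to 1 when CFA replicate 1 or 3, or saline replicate 1 or 3, was left out. It was 5 without CFA replicate 2 and 2 without saline replicate 2. Over all tested genes the count was 1018 in the main fit, and 614 and 748 without CFA replicate 1 and 3. Without saline replicate 1 and 3 it was 1064 and 797. Without CFA replicate 2 it was 1583 and without saline replicate 2 it was 719. CFA and saline libraries did not overlap in 5 members (13.2%), 4 lower and 1 higher, against 14.5% of all genes (6.66% lower and 7.89% higher). Over both directions these shares are close to their backgrounds. By direction, members without overlap were 10.5% lower and 2.63% higher, and those at an unadjusted p below 0.05 were 5.26% lower and 2.63% higher, which rests on 1 to 4 genes each.

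On the scale of FPKM with 1 added, the spread between libraries still left most changes bounded. In 33 of 38 members (86.8%) the 95% interval of the log2 fold change lay wholly within a 1.5-fold change in either direction, against 78.6% of all tested genes. The 5 others were Slc25a51, Slc25a3, Slc25a25, Slc25a18 and Slc25a22. The added 1 narrows the intervals of low members, and 15 had a mean below 5 FPKM. With 0.1 added instead, the log2 fold change went from 0.20 to 0.28 in Slc25a13 and from 0.17 to 0.26 in Slc25a35. The count within 1.5-fold therefore holds for this scale and not for FPKM itself. Summed over the family, FPKM (fragments scaled to transcript length and to the mapped fragments of the library) was 946, 998 and 1013 in CFA replicates 1, 2 and 3 and 1018, 1005 and 944 in saline replicates 1, 2 and 3. The ranges overlap throughout.

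**Figure D1:**
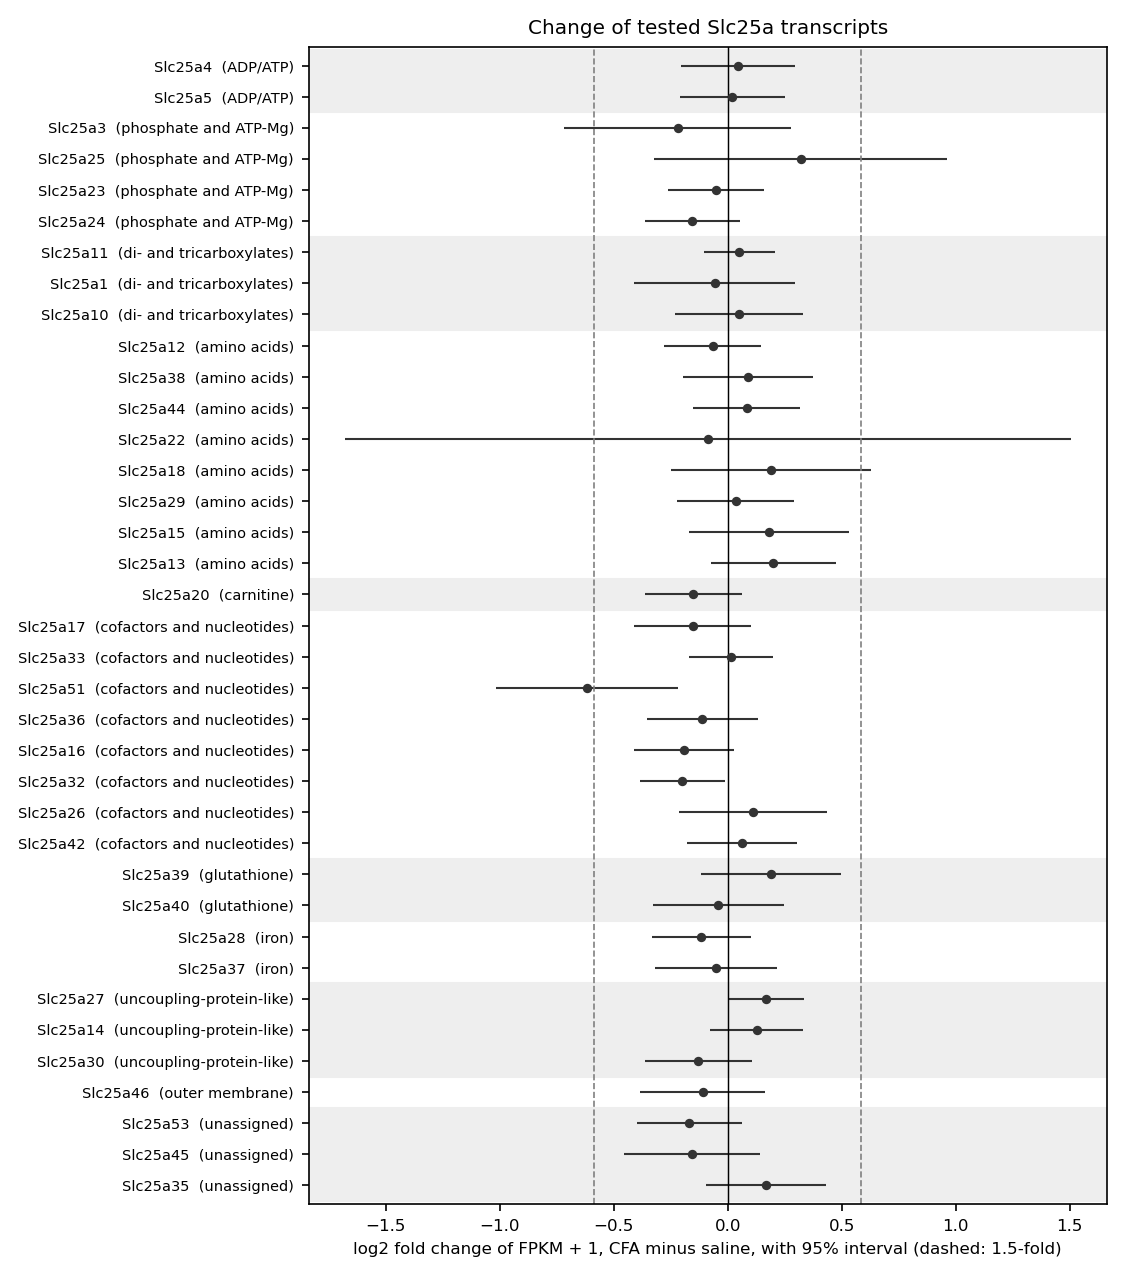
Log2 fold change of FPKM + 1 (CFA minus saline) of the tested Slc25a members except 1 that is not shown, grouped by substrate class, with its 95% interval from limma. Dashed lines mark a 1.5-fold change, and the intervals of all but 5 members drawn lie between them, while that of Slc25a51 runs from −1.02 to −0.22.

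Levels ranged widely among carriers, and FPKM is scaled per length, so members can be set beside each other. Means over the 6 libraries ran from 426 FPKM for Slc25a4 to 0.604 for Slc25a47. The median member stood at 7.78 FPKM and the median row of the table at 5.57. The 5 most abundant members, in order Slc25a4, Slc25a5, Slc25a3, Slc25a11 and Slc25a1, held 66.5% to 70.8% of the family's FPKM in a library. At the top the order is clear, since the lowest Slc25a4 value (373) lay above the highest Slc25a5 value (149.7), and the lowest of these (126) above the highest Slc25a3 value (61.2). Below that, most neighbours in the order overlapped, the exceptions being Slc25a33 (lowest 25.9) above Slc25a12 (highest 17.1) and Slc25a42 (lowest 1.02) above Slc25a47 (highest 0.918). Among the next in order, the ranges were 37.7 to 61.2 FPKM for Slc25a3, 35.7 to 39.2 for Slc25a11 and 27.9 to 41.0 for Slc25a1. In all, 15 members had a mean above 10 FPKM and 15 a mean below 5.

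**Figure D2:**
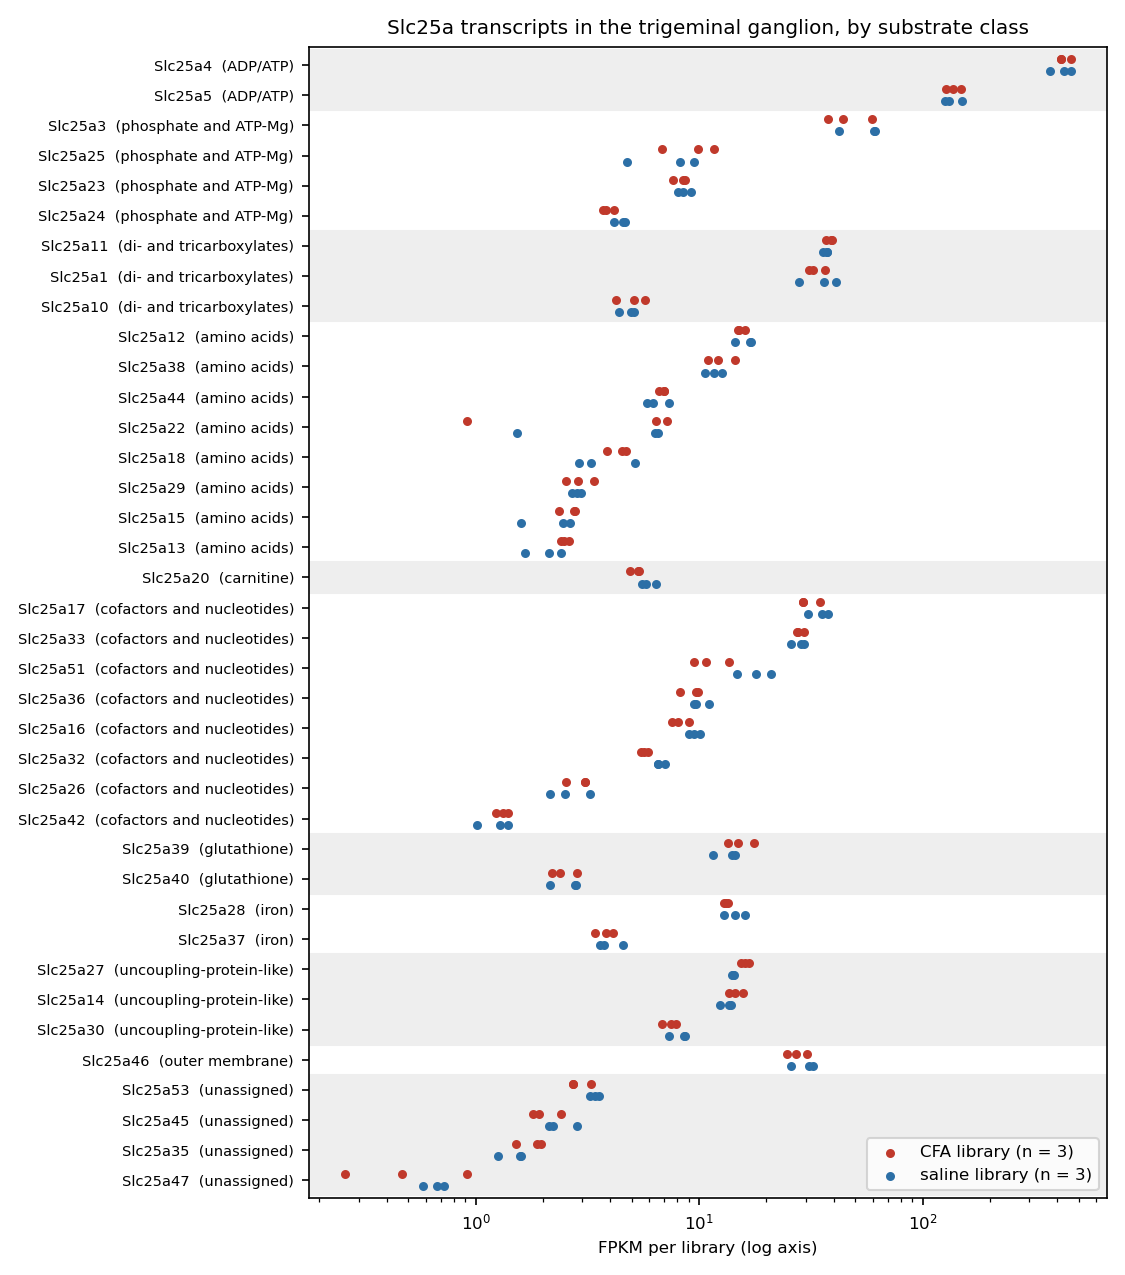
FPKM of the Slc25a rows, except 1 that is not shown, in each of the 6 libraries (log axis), grouped by substrate class, 3 CFA and 3 saline libraries. Slc25a4 stands highest at 373 to 460.3 FPKM, and in Slc25a22 1 library of each group lies far below the rest.

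The promoters of the 3 most abundant carriers are shown, because these genes supply most of the family's RNA. Each line is the RefSeq window (GRCm38.p6) from 250 bases before to 50 after the annotated start, on the gene's strand, with Slc25a4 at chr8:46211013-46211312 (minus strand), Slc25a5 at chrX:36795347-36795646 (plus) and Slc25a3 at chr10:91123918-91124217 (minus). Capitals mark the letters TATAA, which resemble the core of a promoter element and were searched on the gene's strand. They also mark a GC box, read as GGGCGG on the gene's strand and as CCGCCC when it lies on the other strand. A CCAAT box is marked likewise, read as CCAAT on the gene's strand and as ATTGG when on the other, and no marked matches overlap.
Slc25a4: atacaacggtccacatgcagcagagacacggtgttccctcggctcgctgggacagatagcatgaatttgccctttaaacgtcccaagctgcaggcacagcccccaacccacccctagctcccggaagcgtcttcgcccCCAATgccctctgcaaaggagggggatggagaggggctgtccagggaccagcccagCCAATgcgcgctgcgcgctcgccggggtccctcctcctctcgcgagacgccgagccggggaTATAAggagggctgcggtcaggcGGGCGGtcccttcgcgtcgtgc
Slc25a5: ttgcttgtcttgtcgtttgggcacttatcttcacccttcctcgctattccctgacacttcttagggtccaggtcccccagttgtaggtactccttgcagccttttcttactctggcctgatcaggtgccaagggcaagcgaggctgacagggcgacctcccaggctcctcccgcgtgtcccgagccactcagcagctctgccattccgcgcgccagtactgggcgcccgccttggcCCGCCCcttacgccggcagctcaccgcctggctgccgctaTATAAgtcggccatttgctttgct
Slc25a3: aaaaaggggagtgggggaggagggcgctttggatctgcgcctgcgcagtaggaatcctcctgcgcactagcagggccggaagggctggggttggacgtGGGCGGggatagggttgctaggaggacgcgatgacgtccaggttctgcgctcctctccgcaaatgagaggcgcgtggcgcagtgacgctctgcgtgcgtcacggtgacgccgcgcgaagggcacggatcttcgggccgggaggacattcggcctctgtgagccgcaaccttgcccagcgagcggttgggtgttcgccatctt
Both ADP/ATP carrier windows hold TATAA, and the phosphate carrier window does not. It begins 5 bases after the RefSeq start in Slc25a4 and 26 bases after it in Slc25a5. These starts differ from the deposited loci. The Slc25a5 locus begins at 36795651, beyond the end of the window, so its TATAA lies before that locus. The Slc25a4 locus, on the minus strand, begins at 46211284, upstream of the RefSeq start, so its TATAA lies inside that locus. Of the 39 members 30 matched RefSeq windows, 39 windows in all. Of these, 5.13% hold TATAA, against 17.5% of all 32851 windows of the same length and 9.51% of the 13586 windows of genes in the deposited table. GC boxes were in 87.2% of the members' windows, in 35.7% of all windows and in 61% of those of the table's genes. CCAAT boxes were in 51.3%, 37.4% and 37.2% in the same order. The letters GCGCATGC on either strand, a core of the site of NRF1 (a regulator of nuclear genes for mitochondria), were in 0 of the members' windows, in 2.71% of all windows and in 4.83% of those of the table's genes. These are matches of letters in 1 window per start, and say nothing of binding.

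The ADP/ATP carriers exchange cytosolic ADP for matrix ATP. Slc25a4 (ANT1, the form of heart, muscle and neurons), on chromosome 8 at 46206797 to 46211284 (GRCm38), was listed at 418, 418 and 460.3 FPKM in CFA replicates 1 to 3 and at 460.2, 428 and 373 in saline replicates 1 to 3. The lowest and nearly the highest values both came from saline libraries, and the groups overlap. Slc25a5 (ANT2, the more widely expressed form), on chromosome X at 36795651 to 36798807, was listed at 128, 149 and 136 FPKM with CFA and at 126, 132 and 149.7 with saline. Slc25a5 was given by library after its values were seen. The log2 fold changes of Slc25a4 and Slc25a5 were 0.04 (SE 0.105) and 0.02 (SE 0.0968), each within 0.3 in either direction by its 95% interval. Both signs turn negative, to −0.0043 and −0.027, when libraries are scaled to a common total without mitochondrially encoded rows.

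The balance of the 2 ADP/ATP carriers overlapped between groups. Slc25a4 made up 75.8% ± 1.81 (SD, n = 3) of their summed FPKM with CFA and 75.4% ± 3.68 with saline. The lowest share, 71.3%, was in saline replicate 3, where skeletal muscle markers were highest (6 genes summing to 167 FPKM, against 2.90 to 41.7 in the other libraries). That replicate also had the lowest Slc25a4 level of all libraries. Slc25a5 was highest in CFA replicate 2 and saline replicate 3, and these 2 libraries also had the highest summed neutrophil markers (311 and 539 FPKM, against 56.0 to 81.4 in the other 4). The part of either cell type in these levels was not tested. Here and throughout, fewer cells of a type and less RNA per cell cannot be told apart in whole tissue.

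Phosphate enters the matrix through Slc25a3, on chromosome 10 at 91116574 to 91124059. It was listed at 37.7, 59.4 and 43.9 FPKM in CFA replicates 1 to 3 and at 60.9, 61.2 and 42.2 in saline replicates 1 to 3. The values fall into a high and a low set, each with libraries of both groups, and the log2 fold change of −0.22 (SE 0.208, adjusted p = 0.762, limma) has an interval from −0.72 to 0.28. Its within-group SD on the log2 scale was at the 88.6th percentile of tested genes. GENCODE M21 lists 8 transcripts for this gene, and nothing says how reads were shared among them. Their part in the spread was not tested.

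The ATP-Mg/phosphate carriers Slc25a23, Slc25a24 and Slc25a25 adjust the adenine nucleotide pool of the matrix and are switched by cytosolic calcium. In Slc25a24 the values were 3.84, 4.14 and 3.70 FPKM with CFA and at 4.15, 4.57 and 4.64 with saline. The groups do not overlap, but CFA replicate 2 lies just under saline replicate 1, and the log2 fold change was −0.16 (SE 0.0868), with an adjusted p of 0.665 (limma). Slc25a24 was given by library after its values were seen. Slc25a23 stood at 8.26 ± 0.541 FPKM with CFA and 8.60 ± 0.582 with saline (SD, n = 3).

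Slc25a25, chosen for mention after its values were seen, had the most positive log2 fold change of the family (0.32, SE 0.270, adjusted p = 0.740, limma) but a wide spread. It was listed at 9.89, 6.80 and 11.7 FPKM in CFA replicates 1 to 3 and at 8.18, 4.74 and 9.52 in saline replicates 1 to 3. Replicate 2 was lowest and replicate 3 highest in each group. Summed pituitary markers had the same order within each group, at 1047, 232 and 2823 FPKM with CFA and 2479, 188 and 4754 with saline. Skeletal muscle markers also had this order, at 10.3, 2.90 and 41.7 FPKM with CFA and 13.9, 5.06 and 167 with saline. The part of either in the Slc25a25 level was not tested. Without saline replicate 2 the log2 fold change was 0.060, and without CFA replicate 2 it was 0.52.

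The di- and tricarboxylate carriers overlapped between groups. Slc25a11, the oxoglutarate/malate carrier on chromosome 11 at 70644196 to 70647479, was listed at 39.2, 36.8 and 38.8 FPKM with CFA and at 37.5, 37.5 and 35.7 with saline. All 6 values lie close together, and the log2 fold change of 0.05 has an interval from −0.11 to 0.21, the narrowest of the family. Slc25a1, which exports citrate for fatty acid synthesis, stood at 33.3 ± 2.80 against 35.1 ± 6.67 FPKM (SD, n = 3). The dicarboxylate carrier Slc25a10 stood at 5.05 ± 0.744 against 4.83 ± 0.393.

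Of the 8 amino acid carriers 6 were higher and 2 lower under CFA, with a median log2 fold change of 0.09 and no overlap-free member. Slc25a12 (aralar), the aspartate/glutamate carrier of brain and muscle, on chromosome 2 at 71271063 to 71367749, was listed at 15.1, 16.1 and 14.9 FPKM with CFA and at 14.5, 17.0 and 17.1 with saline. Its liver counterpart Slc25a13 (citrin) was far lower, at 2.51 ± 0.10 against 2.07 ± 0.378 FPKM (SD, n = 3). Slc25a12 thus made up 86.0% ± 0.167 of the pair with CFA and 88.6% ± 2.11 with saline, ranges of 85.8% to 86.1% and 87.2% to 91.0% that do not overlap. Shares were computed for 7 pairs of related carriers. Groups did not overlap in 1 other, Slc25a16 with Slc25a42, where Slc25a16 made up 84.3% to 87.1% with CFA and 87.8% to 89.8% with saline, and the remaining pairs overlapped. No test is given for these shares, since exact permutation of groups of 3 allows no p under 0.1. For single genes the groups did not overlap in 14.5% of all tested, and no such share was computed for pairs of other genes.

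Of all members tested, Slc25a22 varied most between libraries of a group. This glutamate/proton carrier, whose human gene is mutated in early infantile epilepsy, lies on chromosome 7 at 141429744 to 141437892 and was listed at 0.92, 7.20 and 6.44 FPKM in CFA replicates 1 to 3 and at 6.56, 1.54 and 6.33 in saline replicates 1 to 3. CFA replicate 1 and saline replicate 2 are thus far below the 4 other libraries, which lie within 6.33 to 7.20. Its within-group SD was at the 98.9th percentile of tested genes, and its log2 fold change of −0.09 has a 95% interval reaching 1.59 to either side, the widest of the family. GENCODE M21 lists 25 transcripts for Slc25a22, the most of any member, and their part in this spread was not tested. Slc25a18, the related glutamate carrier of astrocytes, was listed at 4.50, 4.71 and 3.86 FPKM with CFA and at 2.89, 5.18 and 3.29 with saline. Slc25a22 and Slc25a18 were both chosen for mention after their values were seen.

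The remaining amino acid carriers overlapped between groups. Slc25a38, which imports glycine for haem synthesis, stood at 12.5 ± 1.82 FPKM with CFA against 11.7 ± 1.03 with saline (SD, n = 3), and Slc25a44, a carrier of branched-chain amino acids, at 6.88 ± 0.20 against 6.46 ± 0.773. The ornithine carrier Slc25a15 stood at 2.63 ± 0.237 against 2.23 ± 0.554. Slc25a29, which carries basic amino acids, stood at 2.94 ± 0.434 against 2.83 ± 0.133.

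Slc25a20 exchanges acylcarnitines for carnitine and so feeds long-chain fatty acids to oxidation. The libraries read 5.40, 5.34 and 4.91 FPKM with CFA and 5.53, 5.78 and 6.42 with saline. The groups do not overlap, with CFA replicate 1 just under saline replicate 1. The difference of −0.15 on the log2 scale (SE 0.0886) was not called (adjusted p = 0.682, limma).

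The cofactor and nucleotide carriers held both members with lower values at an unadjusted p below 0.05. In this class 4 of 9 were higher and 5 lower, with a median log2 fold change of −0.11. Slc25a51, the carrier that brings NAD into the matrix, lies on chromosome 4 at 45395923 to 45408766. The libraries read 9.49, 13.6 and 10.7 FPKM in CFA replicates 1 to 3 and 17.9, 14.7 and 21.0 in saline replicates 1 to 3. All CFA libraries lie below all saline libraries, with CFA replicate 2 and saline replicate 2 nearest to each other. The means were 11.3 ± 2.13 and 17.9 ± 3.13 FPKM (SD, n = 3), a ratio of 0.631. The within-group SD on the log2 scale was at the 81.7th percentile of tested genes. The log2 fold change was −0.62 (SE 0.167, interval −1.02 to −0.22) and was not called (adjusted p = 0.406, limma). Without any one library it ran from −0.75 to −0.50, with adjusted p from 0.228 to 0.922.

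By likeness to Slc25a51 over the 6 libraries, the nearest genes of the table were Bbs4, a subunit of the BBSome of cilia (Pearson r of log2(FPKM + 1) 0.994), Zfp950 (0.993), the nuclear lamina-associated Tmpo (0.992) and Hnrnpul1 (0.992). With 6 points and 12238 genes such values arise readily, and they are given as a description. In each of the 4 genes CFA replicate 1 was the lowest library and saline replicate 3 the highest, as in Slc25a51. Their changes were smaller, from −0.28 (Tmpo, 4.16 ± 0.412 against 5.27 ± 0.521 FPKM) to −0.08 (Bbs4, 8.83 ± 0.256 against 9.37 ± 0.217).

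Slc25a32, which carries folate and FAD, lies on chromosome 15 at 39091231 to 39112716. The libraries read 5.52, 5.92 and 5.64 FPKM with CFA and 6.52, 6.53 and 7.03 with saline. The groups do not overlap and each is narrow, but the log2 fold change was small (−0.20, SE 0.0778, adjusted p = 0.580, limma). Slc25a16, a carrier linked to coenzyme A, stood at 8.19 ± 0.760 against 9.49 ± 0.544 FPKM (SD, n = 3) with a slight overlap, and the other coenzyme A carrier, Slc25a42, at 1.32 ± 0.0810 against 1.23 ± 0.193.

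The most abundant carrier of this class was Slc25a17, the peroxisomal cofactor carrier, which sits outside mitochondria. It was listed at 29.3, 34.6 and 29.1 FPKM with CFA and at 30.8, 35.4 and 37.7 with saline, and the groups overlap. The pyrimidine nucleotide carriers Slc25a33 and Slc25a36 stood at 28.3 ± 1.09 against 28.0 ± 1.86 FPKM and at 9.26 ± 0.934 against 10.1 ± 0.834 (SD, n = 3). Slc25a26, which imports S-adenosylmethionine for methylation in the matrix, stood at 2.90 ± 0.318 against 2.63 ± 0.550.

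Glutathione and iron carriers did not separate the groups. Slc25a39, needed for glutathione import, was listed at 14.9, 13.5 and 17.7 FPKM with CFA and at 14.5, 14.03 and 11.5 with saline. Its relative Slc25a40 stood at 2.48 ± 0.325 against 2.58 ± 0.366 FPKM (SD, n = 3). Slc25a28 (mitoferrin 2) was listed at 13.3, 12.9 and 13.5 FPKM with CFA and at 16.0, 14.5 and 13.0 with saline. Slc25a37 (mitoferrin 1, the form of developing red cells) stood at 3.43, 4.14 and 3.81 FPKM with CFA and at 3.75, 3.59 and 4.58 with saline. It was highest in CFA replicate 2 and saline replicate 3, the libraries with the highest neutrophil markers. Summed red cell markers were 435, 361 and 322 FPKM in CFA replicates 1 to 3 and 185, 313 and 405 in saline replicates 1 to 3. They were highest in CFA replicate 1, where Slc25a37 was lowest, and among saline libraries in replicate 3, where it was highest. The part of either cell type was not tested. Slc25a37 was chosen for mention of every library after its values were seen.

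The uncoupling-protein relatives of brain were well expressed. Slc25a27 (UCP4), on chromosome 17 at 43641900 to 43667015, was listed at 16.1, 15.3 and 16.8 FPKM with CFA and at 14.37, 14.11 and 13.9997 with saline. All CFA libraries lie above all saline libraries, and the 3 saline values are nearly equal. The log2 fold change was 0.17 (SE 0.0688) and did not pass (adjusted p = 0.592, limma). Slc25a14 (UCP5) stood at 14.7 ± 1.04 against 13.3 ± 0.806 FPKM (SD, n = 3), with overlap. Slc25a30, the kidney homologue of UCP5, stood at 7.39 ± 0.555 against 8.18 ± 0.761, also with overlap. In sensory neuron markers, 6 of 7 genes were likewise higher under CFA, with a median log2 fold change of 0.12 and summed levels of 3334 to 3771 FPKM with CFA and 2768 to 3671 with saline. Their part in the Slc25a27 level was not tested.

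Slc25a46, an outer membrane member that acts in mitochondrial dynamics, was listed at 27.1, 30.5 and 24.7 FPKM with CFA and at 25.9, 30.9 and 32.3 with saline. Among the members given no substrate here, Slc25a53 was the most abundant, at 2.74, 3.30 and 2.74 FPKM with CFA and 3.23, 3.57 and 3.41 with saline, and CFA replicate 2 overlaps the saline range. Slc25a45 stood at 2.05 ± 0.322 against 2.40 ± 0.383 FPKM and Slc25a35 at 1.79 ± 0.237 against 1.48 ± 0.186 (SD, n = 3). Slc25a47 alone was below a mean of 1 FPKM and was not tested. It was listed at 0.468, 0.260 and 0.918 FPKM with CFA and at 0.673, 0.723 and 0.584 with saline. Its locus begins at 108836046 on chromosome 12, just beyond the end of Slc25a29 at 108835883 on the other strand.

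**Figure D3:**
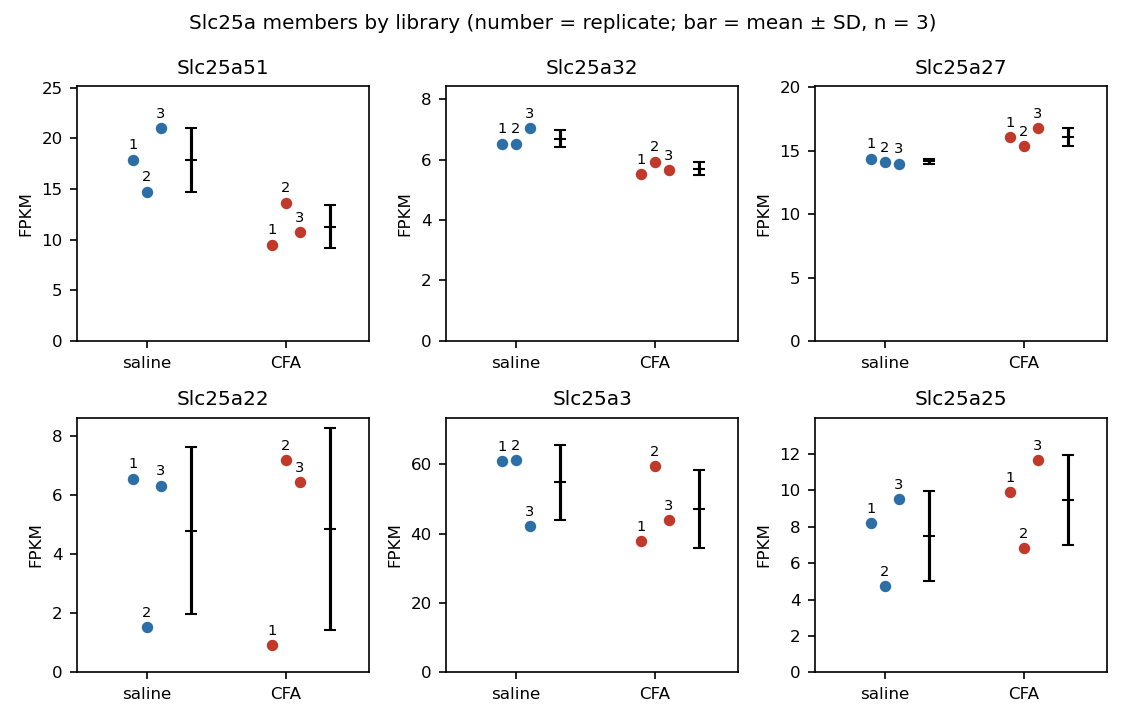
FPKM of 6 Slc25a members in each library, with the replicate number above each point and the mean ± SD (n = 3) beside it. In Slc25a51 and Slc25a32 all CFA values lie below all saline values, in Slc25a27 above them, and in Slc25a22, Slc25a3 and Slc25a25 libraries of 1 group differ more from each other than the group means do.

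Other mitochondrial genes are given beside the carriers, with no test of a difference between lists. Among carriers with other names, Mtch2 had a log2 fold change of 0.0003, Mtch1 of 0.09 and the uncoupling protein Ucp2 of −0.16 (7.45 ± 1.09 against 8.52 ± 1.67 FPKM, SD, n = 3), while Ucp1 and Ucp3 were below the filter. Genes of carrier import through the TIM22 route were higher in 11 of 16, with a median log2 fold change of 0.08. The smallest p there belonged to the small chaperones Timm13 (45.2 ± 6.13 against 35.7 ± 6.50 FPKM) and Timm10 (54.9 ± 8.34 against 46.9 ± 2.76), followed by Tomm7. None of these 16 genes reached an unadjusted p below 0.05 by limma, and none was called.

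Other transporters and channels of mitochondria were split, 10 of 23 higher and 13 lower, with a median of −0.01. In that list 3 genes had an unadjusted p below 0.05, 2 higher and 1 lower, and none was called by limma. Over all genes 5.37% were higher and 2.95% lower by the same rule. The groups did not overlap in 4 genes of the list (17.4%), against 14.5% of all genes. Sfxn5, a sideroflexin, stood at 3.68 ± 0.149 against 2.87 ± 0.0543 FPKM and the porphyrin transporter Abcb6 at 2.24 ± 0.438 against 1.58 ± 0.20. The sodium/calcium exchanger Slc8b1 was lower, at 2.62 ± 0.524 against 3.56 ± 0.238. The adjusted p values of Sfxn5, Abcb6 and Slc8b1 were 0.452, 0.591 and 0.574 (limma).

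The 4 enzymes of the malate-aspartate shuttle (Mdh1, Mdh2, Got1 and Got2) were all higher, by a median log2 of 0.15, and the shuttle's carriers Slc25a11, Slc25a12 and Slc25a13 stood at 0.05, −0.07 and 0.20. No enzyme passed by limma; the smallest p was that of Mdh2 (119.9 ± 13.4 against 105 ± 11.4 FPKM, adjusted p = 0.697). Regulators of mitochondrial biogenesis were higher in 6 of 7, by a median of 0.10, with Pprc1 (1.65 ± 0.210 against 1.33 ± 0.113 FPKM) and Esrra (18.9 ± 2.02 against 16.4 ± 1.40) first by p and no call. Nuclear respiratory chain genes were higher in 36 of 44 by a median of 0.13. In 10 of the 44 the groups do not overlap, all higher, against 7.89% of all genes, and 6 had an unadjusted p below 0.05, all higher, against 5.37%. None was called by limma, with the smallest p in Ndufc1 (adjusted p = 0.151), Cox6c and Uqcrh. Mitochondrially encoded genes were lower in 13 of 13 by a median of −0.36, and in 4 the groups do not overlap, against 6.66% of all genes that are lower by the same rule.

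The mitochondrially encoded RNA made up 7.24% of the FPKM total in CFA replicate 3 and 10.6% to 13.7% in the other libraries, while the carriers' summed FPKM in that library, 1013, was within the range of the others. The median FPKM over all rows was 5.73 in CFA replicate 3 and 5.41 to 5.72 in the other libraries. Where FPKM is scaled to all mapped fragments, a lower mitochondrially encoded part would raise all other genes. Whether it did so here was not tested. With that part left out of the total, the median log2 fold change was −0.05 in the family and −0.03 over all genes, and 15 of 38 members were higher.

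**Figure D4:**
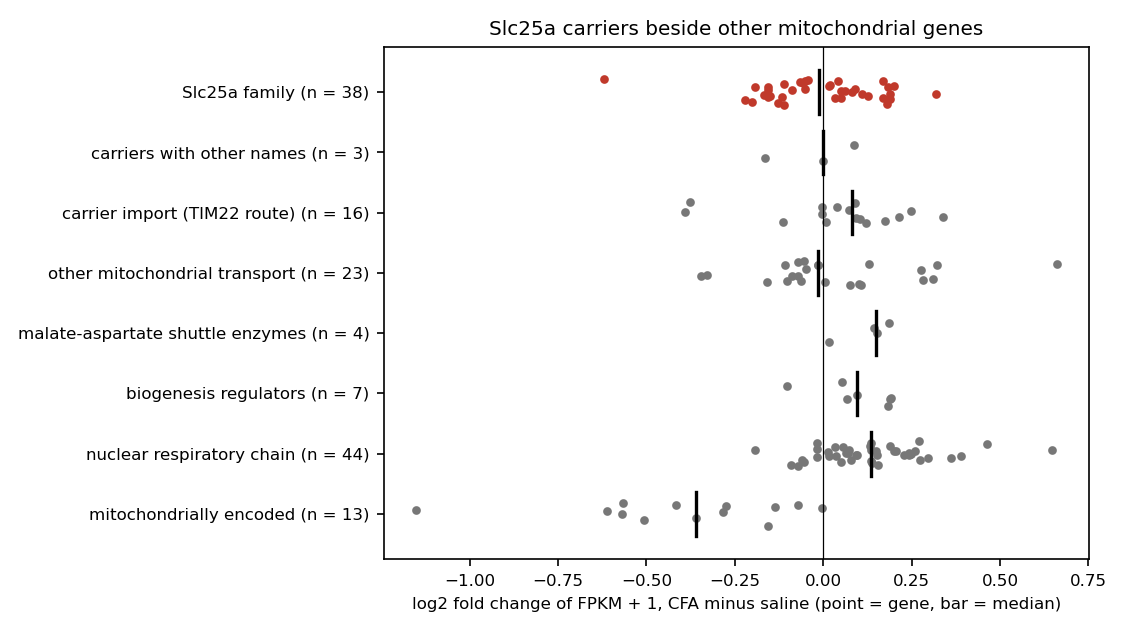
Log2 fold change of FPKM + 1 (CFA minus saline) of each tested gene in the Slc25a family and 7 other mitochondrial lists, with a bar at the median. The family's median of −0.01 lies at zero, beside 0.13 for nuclear respiratory chain genes and −0.36 for mitochondrially encoded genes.

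In the whole series, all 7 neuron, 4 satellite glia and 4 Schwann cell markers were listed above 0 in every library. So was every row of the other marker lists, and presence alone does not identify the tissue. The median marker mean was 616 FPKM for neurons, 106 for satellite glia and 491 for Schwann cells. It was 153 FPKM for pituitary and 6.11 for skeletal muscle. Markers of central glia were higher under CFA in 5 of 5 genes (summed 202 to 265 FPKM with CFA, 145 to 189.6 with saline), and macrophage markers in 5 of 5 (58.2 to 64.8 against 42.7 to 44.5). The choroid plexus marker Ttr, at 225 ± 36.3 FPKM with CFA and 2.08 ± 0.184 with saline, also separated the groups and was called (adjusted p = 1.36e-05, limma). The other rows of that list were far lower and, below the filter, were not tested. Clic6 stood at 1.28 ± 0.245 against 0.688 ± 0.179 FPKM and Kl at 0.693 ± 0.114 against 0.354 ± 0.0910, so the list's sum is nearly all Ttr with CFA. Satellite glia markers summed to 458 to 505 against 391 to 413 FPKM, but only 2 of 4 were higher. Fabp7 stood at 233 ± 22.9 against 136 ± 10.5 FPKM, while Cdh19 was lower, at 22.6 ± 2.85 against 33.3 ± 1.64 (SD, n = 3). The sums of these lists do not overlap between groups, and their part in the carriers' levels was not tested. Red cell markers were also higher under CFA in 5 of 5 genes, with a median log2 fold change of 0.35. Their sums overlapped between groups (322 to 435 against 185 to 405 FPKM), and 0 of them had an unadjusted p below 0.05 by limma.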

How the data were processed

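RNA was measured in 6 libraries of mouse trigeminal ganglion. Per the labels' protocols, poly(A) RNA was selected and libraries were made with a stranded kit. The authors deposited FPKM values per gene in 1 table, per the file headers, and the submitters' processing notes name GRCm38. Not given in the sources used here: aligner, quantification tool, annotation and use of strand. Every row was protein-coding and had at least 1 group mean of 0.501 FPKM or more, and 1 blank line was skipped.

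From these values, rows averaging 1 FPKM or more were put on the log2(FPKM + 1) scale. Groups were compared by limma 3.58.1, run under R 4.3.3 (a two-sided moderated test with a mean trend and no covariate), with Benjamini-Hochberg adjustment over all 12238 rows tested and a threshold of 0.05. Intervals are 95% intervals from the same fit. Fold changes on this scale understate those of low genes. The functions were tested on simulated data first.

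Depth is unknown: in low values of genes with 1 transcript the strongest whole-read step was 0.209, where 1 would mean whole multiples. FPKM totals per library ran from 261183 to 275152. No counting interval is given. All 39 members matched GENCODE M21 by identifier, 33 with identical coordinates. Exons of 11 overlap a gene on the other strand and those of 2, Slc25a51 and Slc25a47, a microRNA gene on the same strand. Members have 1 to 25 transcripts. Reads shared between close copies such as Slc25a4, Slc25a5 and its pseudogene leave single values uncertain.

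The members and lists were chosen with earlier results of these data known. Counts cover every member, but 1 member is not reported singly here. Every library is given for members with an unadjusted p below 0.05, for the most abundant of each class and for rows below the filter, and others named so are marked. From each list up to 3 genes with the smallest p were named. The other settings tried were no filter, a filter at a mean of 5 FPKM, 0.1 as the pseudocount, median-of-ratios scaling, a common total without mitochondrially encoded rows, eBayes without trend, a replicate block and leaving out each library. Leaving out both libraries numbered 3 was chosen after seeing the data. Figures were drawn with matplotlib 3.10.9.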

Additional observations from a re-analysis of the deposited data

How the results depend on the processing

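No Slc25a member was called under any alternative, with a lowest adjusted p of 0.228 (Slc25a51 without CFA replicate 2, limma). The direction held under every alternative in 24 of 38 members, Slc25a51, Slc25a32 and Slc25a27 among them, and the 14 others had main changes of at most 0.19 in size. With the filter raised to 5 FPKM fewer genes enter, and 24 members were tested, 11 of them higher. Their median log2 fold change was −0.055, against 0.011 over all genes under that filter. With a common total without mitochondrially encoded rows the median was −0.053, and Slc25a5 (−0.027), Slc25a29 (−0.0017), Slc25a33 (−0.030) and Slc25a4 (−0.0043) turned negative.

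Leaving out 1 library gave 1 to 5 members at an unadjusted p below 0.05. Over all genes 614 to 1583 then had such a p, against 1018 in the main fit. Members higher under CFA then numbered 15 to 21. The family's medians ran from −0.039 to 0.021, and those over all genes from −0.0074 to 0.020. Signs changed when 1 library was left out in these members, whose log2 fold changes then ran from −0.61 to 0.59 in Slc25a22, from −0.048 to 0.11 in Slc25a29, from −0.11 to 0.034 in Slc25a37, from −0.13 to 0.014 in Slc25a40, from −0.036 to 0.091 in Slc25a5 (0.096 without both libraries numbered 3), from −0.033 to 0.15 in Slc25a10, from −0.038 to 0.051 in Slc25a33, from −0.041 to 0.11 in Slc25a4, from −0.014 to 0.17 in Slc25a38, from −0.0085 to 0.11 in Slc25a42 and from −0.21 to 0.062 in Slc25a1.

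Without both libraries numbered 3 no member had an unadjusted p below 0.05 (count 0), and signs changed in Slc25a39 (−0.0052, otherwise up to 0.27), Slc25a46 (0.021, otherwise down to −0.20), Slc25a10 (−0.089), Slc25a33 (−0.068), Slc25a4 (−0.087), Slc25a38 (−0.010), Slc25a37 (0.030), Slc25a26 (−0.021, otherwise up to 0.23) and Slc25a40 (0.015). The cause was not tested. With the replicate number as a block, 2 members had an unadjusted p below 0.05 and the median stayed at −0.013. Over all genes 945 had such a p with the block, and 691 without both libraries numbered 3. Same-numbered libraries deviated from their group means with correlations of 0.080, 0.11 and −0.048. The same number was the best match for CFA replicates 1 and 2, while CFA replicate 3 correlated best with saline replicate 1 (0.11). Such small values do not settle whether the numbers pair samples, and the main fit took no pairing. Depth is unknown, so which low members are limited by counting cannot be said.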
